A study of Mus musculus with 6 samples.

Results

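The genes described here encode heat shock proteins and the chaperones that work with them. They were chosen by symbol and not by any measured difference, though with earlier results of these data known. They comprise the HSP90, HSP70, HSP110 and small heat shock proteins, the J proteins (DNAJ), the BAG factors and Hspbp1. Also included are the subunits of the cytosolic chaperonin CCT, prefoldin, and the mitochondrial HSP60 and HSP10. The 5 endoplasmic reticulum genes Hspa5, Hsp90b1, Dnajb9, Dnajb11 and Dnajc3 were left out by name. The rule gave 82 of the 19938 genes measured. Of 84 mouse symbols in the RefSeq gene table that fit the rule, Hsp90ab1 and Hspa1b had no probe set of their own. The cells were podocytes of an immortalized murine line, taken after differentiation. Total RNA of the input was measured in 3 samples, and RNA bound by an antibody to Staufen2, a double-stranded RNA-binding protein, in cytoplasmic lysate in 3 others. All 6 samples share the line, its differentiation at the non-permissive temperature without gamma-interferon, and an amount of 100 ng of RNA at labelling. No genotype or drug sets the groups apart, and a pulldown with a control antibody was not analysed here. Values are log2 expression values of arrays, and each difference is pulldown minus input, so it describes a share of the recovered RNA relative to other RNAs and not binding to Staufen2 as such.

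Chaperones bind unfolded stretches of other proteins and help them reach or keep their folded state. HSP70 proteins do so in cycles of ATP hydrolysis, which J proteins start and exchange factors (HSP110, Hspbp1, several BAG proteins) end by releasing ADP. HSP90 takes over many clients at a late stage. Small heat shock proteins hold unfolded proteins without ATP, and prefoldin passes new actin and tubulin chains to the ring-shaped CCT, which folds them. Podocytes, whose foot processes rest on actin bundles, are known for the small heat shock protein Hspb1 as a regulator of actin.

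The label "cytosolic" does not hold for every member. From general knowledge, at least 8 act in mitochondria (among them Hspa9, Hspd1, Hspe1 and Dnajc15) and at least 7 in the endoplasmic reticulum (among them Dnajb12 and Hspa13), while Hspb11 is a subunit of the intraflagellar transport complex also called Ift25. Of 7 podocyte markers measured, Wt1, Synpo, Cd2ap and Actn4 exceeded 6.54 in the input, which is the median over all probe sets, and Nphs1, Podxl and Tcf21 did not. Of other cell types' markers, 2 of 3 mesangial, 0 of 4 endothelial, 2 of 4 tubular and 1 of 3 immune markers exceeded it, and their part in the differences was not tested. Arrays of 1 group correlated at r = 0.998 to 0.999 and arrays of different groups at 0.982 to 0.983. Nothing in the labels ties replicates to separate cultures, so every p-value here reflects the spread among these 6 samples alone, and that spread may be technical. Stau2, the gene of the antibody's target, stood at -0.02 ± 0.027 (SE; limma adjusted p = 0.52).

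Hspd1 and Hspe1 encode the ring (HSP60) and the lid (HSP10) of the mitochondrial chaperonin, and their genes lie head to head on chromosome 1. The stretch between their start sites is shown because it serves both genes, whose RNAs nevertheless went in opposite directions below. In RefSeq (GRCm38.p6), Hspe1 starts at 55088148 on the plus strand and Hspd1 at 55087932 on the minus strand, with a further Hspd1 start at 55088243, so 215 bases lie between the first pair, chr1:55087933-55088147, read here on the plus strand.
Hspd1 and Hspe1: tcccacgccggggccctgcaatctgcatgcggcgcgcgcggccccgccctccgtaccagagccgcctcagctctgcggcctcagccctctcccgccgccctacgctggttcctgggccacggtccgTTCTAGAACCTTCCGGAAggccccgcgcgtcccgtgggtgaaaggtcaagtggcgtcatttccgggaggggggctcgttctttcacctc
The capitals mark 2 overlapping matches, 1 on each strand, to the core of the heat shock element that the factor Hsf1 binds: GAA, TTC and GAA in this order, each separated by 2 bases of any kind. Searched on both strands of the 300 bases around each RefSeq start, this motif was found for 4 of the 67 members with a promoter sequence (5.97%), namely Hspd1, Hspe1, Dnajb6 and Hsph1, and for 0.662% of all 27025 genes with one. The matches of Hspd1 and Hspe1 are the same bases, counted once for each gene, which raises the members' share. The match of Hsph1 lies after its start. A match describes letters and not a bound site. The differences of Hspd1, Hspe1, Dnajb6 and Hsph1 in the pulldown were 0.20, -0.96, -0.27 and 0.80, and a tie to the motif was not tested. That of Dnajb6 comes from a probe set below the median of all probe sets.

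Chaperone mRNAs went both ways in the pulldown. Of the 82 members, 31 were higher (37.8%, against 31.3% of all genes), 27 were lower (32.9%, against 17.3%) and 24 missed the threshold, an adjusted p of 0.05 from limma over all genes tested. In 61 members (74.4%, against 55.9% of all genes) input and pulldown values did not overlap. No member was called at least 2-fold higher (1.67% of all genes), and 6 were at least 2-fold lower (2.01% of all genes): Pfdn5, Dnajc15, Hspb11, Hspb6, Pfdn6 and Dnajc4. The median log2 difference was 0.04 for the members and 0.04 for all genes, and the quartiles were -0.32 and 0.32 for the members and -0.04 and 0.19 for all genes. The median of all probe sets was exceeded in at least 1 group by 73 of the 82 members and by 12162 of the 19938 genes. Among these 73, 30 were higher and 26 lower (41.1% and 35.6%, against 45.9% and 26.8% of all genes above the median). Input and pulldown did not overlap in 58 of these 73 (79.5%, near the 78.1% of all genes above the median). Of the 9 dimmer members 1 was higher and 1 lower. Cyclic loess scaling moved the members' split to 24 higher and 33 lower, and that of all genes to 5127 and 4565, from 6246 and 3459.

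**Figure D1:**
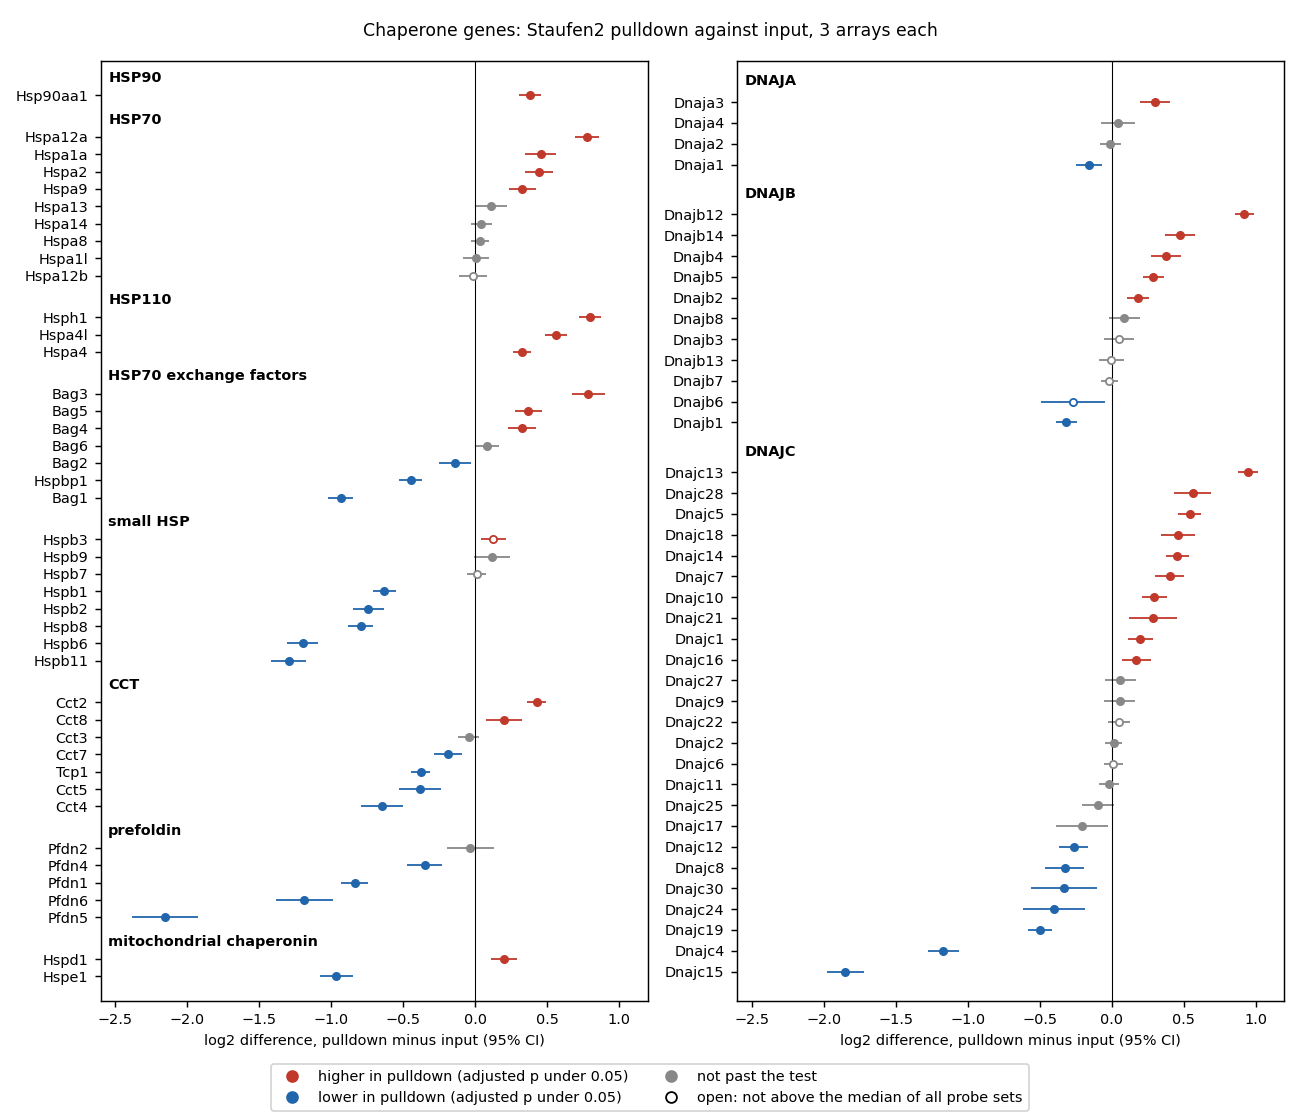
Log2 difference (pulldown minus input) of each of the 82 chaperone genes with its 95% confidence interval, by role, with 3 arrays per group. All 3 HSP110 genes lie right of 0 and 4 of 5 prefoldin genes clearly left of it, and the J proteins spread from -1.85 (Dnajc15) to 0.94 (Dnajc13).

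Of the 13 HSP90, HSP70 and HSP110 genes, 8 were higher and 5 missed the threshold, though Hspa8 was lower on another of its probe sets. Of all genes above the median of all probe sets, 45.9% were higher and 26.8% lower. Hsp90aa1, the stress-inducible HSP90, had input values of 12.30, 12.34 and 12.26 and pulldown values of 12.69, 12.70 and 12.64. The groups did not overlap, and the difference was 0.38 ± 0.032 (SE; limma adjusted p = 3.4e-05). Of 9 HSP70 genes, 4 were higher (44.4%, near the 45.9% of all genes above the median) and 5 did not pass. Hspa12a, a distant relative of the classical HSP70 proteins, went from 8.72, 8.80 and 8.71 to 9.54, 9.54 and 9.48, a difference of 0.78 ± 0.035 (adjusted p = 1.3e-06 by limma). Hspa1a, a stress-inducible HSP70, went from 9.38, 9.40 and 9.25 to 9.76, 9.82 and 9.80 (0.45 ± 0.045). Mir3086 lies inside the gene Hspa12a, and the small nucleolar RNA genes Gm22200 and Gm26109 lie inside Hspa9. Whether these RNAs enter the values of Hspa12a and Hspa9 was not tested. Hspa2, known best from the testis, was higher by 0.44 ± 0.040 and mitochondrial Hspa9 by 0.33 ± 0.039, each without overlap of the groups.

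The constitutive HSP70, Hspa8, did not pass. Its values were 13.16, 13.15 and 13.16 in the input and 13.21, 13.20 and 13.17 in the pulldown, close together though without overlap, a difference of 0.03 ± 0.026 with a 95% confidence interval of -0.03 to 0.10 (limma adjusted p = 0.34). Its gene is the host of the small nucleolar RNAs Snord14c, Snord14d and Snord14e, and whether these enter its values was not tested. The probe set that lies among neighbours of the gene's own chromosome had input values of 12.24, 12.30 and 12.23 and pulldown values of 12.07, 12.13 and 12.02, without overlap (-0.18 ± 0.038, limma adjusted p = 0.0048). Hspa1a has a near-identical copy in Hspa1b. The probe set listed for both stood at 0.37 ± 0.048 and went the same way as that of Hspa1a, and signal of the 2 genes cannot be told apart there.

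HSP110 proteins, which release ADP from HSP70 and help to dissolve aggregates, were higher in 3 of 3 genes. The share higher among all genes above the median was 45.9%. Hsph1 went from 10.69, 10.64 and 10.64 to 11.44, 11.42 and 11.50, a difference of 0.80 ± 0.034 (limma adjusted p = 1.0e-06), or 1.74-fold. Hspa4l was higher by 0.56 ± 0.032 and Hspa4 by 0.32 ± 0.027. In all 3 genes every pulldown array lay above every input array. Groups did not overlap in 78.1% of all genes above the median.

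The 7 other genes grouped here as exchange factors of HSP70 split: 3 were higher, 3 lower, and 1 missed the threshold. Each share is 42.9%, against 45.9% higher and 26.8% lower of all genes above the median. Bag3, which joins HSP70 to small heat shock proteins and sends damaged actin-crosslinking proteins to autophagy, went from 10.77, 10.85 and 10.95 to 11.67, 11.65 and 11.61 (0.78 ± 0.048, limma adjusted p = 5.9e-06). Bag1, which links HSP70 to the proteasome, went the other way, from 11.05, 10.93 and 10.99 to 10.07, 10.04 and 10.06 (-0.94 ± 0.036, limma adjusted p = 7.3e-07). Neither gene's groups overlapped. Bag5 (0.37 ± 0.039) and Bag4 (0.32 ± 0.041) were higher and the exchange factor Hspbp1 was lower (-0.45 ± 0.033). Bag2, an inhibitor of the ubiquitin ligase CHIP, was lower by a small margin (-0.14 ± 0.046, limma adjusted p = 0.037). That call ended when any one of input replicates 1, 2 and 3 or pulldown replicates 1 and 2 was left out (adjusted p from 0.051 to 0.11). Bag6, which guards membrane proteins before insertion, stood at 0.08 ± 0.036 (limma adjusted p = 0.10).

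J proteins are the helpers that bring clients to HSP70 and start its ATP hydrolysis. Of 40 measured, 16 were higher and 10 lower, and 14 missed the threshold. These shares, 40% and 25%, lie near those of all genes above the median (45.9% and 26.8%), where 34 of the 40 lie. In class A, which holds the relatives closest to bacterial DnaJ, mitochondrial Dnaja3 was higher (0.30 ± 0.044) and cytosolic Dnaja1 lower (-0.16 ± 0.038, limma adjusted p = 0.0098). Dnaja4, whose gene holds Mir5710, stood at 0.04 ± 0.050 and Dnaja2 at -0.01 ± 0.031. After cyclic loess Dnaja2 was called lower, at -0.11 (limma adjusted p = 0.022), and without pulldown replicate 2 Dnaja4 was called higher, at 0.10 (limma adjusted p = 0.029). The gene Dnaja1 holds Mir207, and on the probe set among neighbours of its own chromosome it stood at -0.08 (limma adjusted p = 0.28).

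Of 11 class B genes, 5 were higher, 2 lower and 4 not past the test. The share higher was 45.5%, against 31.3% of all genes. All 5 higher genes are among the 7 of the 11 that lie above the median, where 45.9% of all genes were higher. Dnajb12, a J protein of the endoplasmic reticulum membrane that takes part in the degradation of misfolded membrane proteins, had input values of 10.40, 10.43 and 10.40 and pulldown values of 11.34, 11.30 and 11.36. This is 1.90-fold higher (0.92 ± 0.028, limma adjusted p = 3.4e-07). Its paralog Dnajb14 was higher by 0.48 ± 0.045, and the cytosolic HSP40 proteins Dnajb4 and Dnajb5 by 0.38 ± 0.044 and 0.29 ± 0.031. Dnajb1, the stress-inducible HSP40 and close relative of these last genes, was lower. Its values went from 10.74, 10.73 and 10.70 to 10.42, 10.36 and 10.45, without overlap (-0.31 ± 0.032, limma adjusted p = 9.7e-05).

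Dnajb6, a suppressor of aggregation, was lower only at the edge of the test (-0.27 ± 0.095, limma adjusted p = 0.049) and on a probe set below the median of all probe sets, at 6.10 in the input. That call ended without any one of input replicates 1, 2 and 3 and pulldown replicates 1 and 3. The 4 probe sets listed for both Dnajb6 and Gm4247, with input values of 12.15 to 12.36, stood between -0.07 and -0.06 and did not pass. A probe set pair listed for both Dnajb14 and Pin4, a small peptidyl-prolyl isomerase, stood at -1.35 and -1.28, opposite to the probe set of Dnajb14 alone, and which of the 2 genes gave that signal was not tested. Dnajb6 was chosen after its values were seen.

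Class C, whose members share only the J domain, held the extremes of the J proteins. In this class 10 of 25 were higher and 7 lower, while 8 missed the threshold. The shares, 40% and 28%, lie near those of all genes above the median (45.9% and 26.8%). Dnajc13 (RME-8), a large J protein of endosomes that works with the retromer, went from 11.36, 11.34 and 11.30 to 12.25, 12.30 and 12.28 (0.94 ± 0.030, limma adjusted p = 3.8e-07), or 1.93-fold. Dnajc28 (0.56 ± 0.054), the cysteine string protein Dnajc5 (0.54 ± 0.034) and Dnajc18 (0.46 ± 0.050) were also higher. The 6 other members of the class that were higher lay between 0.17 and 0.46. All 10 had groups that did not overlap, as did 78.1% of all genes above the median.

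Dnajc15, a J protein of the mitochondrial inner membrane also called MCJ, was lower with input values of 8.99, 8.82 and 9.00 and pulldown values of 7.13, 7.10 and 7.03. The groups lay far apart, at 3.60-fold (-1.85 ± 0.054, limma adjusted p = 3.0e-07). Dnajc19, which serves the import motor of the same membrane and is a paralog of Dnajc15, was lower too, by a smaller amount (-0.50 ± 0.036). Dnajc4 was 2.25-fold lower (-1.17 ± 0.046), and Dnajc24, a J protein of diphthamide synthesis, stood at -0.40 ± 0.091 (limma adjusted p = 0.0076). The remaining 3 lower members lay between -0.33 and -0.26.

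Of 8 genes with an Hspb symbol, 5 were lower, 1 was higher and 2 missed the threshold. Without Hspb11, the intraflagellar transport subunit, 4 of 7 were lower. Among all genes above the median, where 6 of the 8 lie, 26.8% were lower and 45.9% higher. Hspb1 (HSP27), which caps and protects actin filaments, went from 12.69, 12.67 and 12.69 to 12.09, 12.06 and 11.99 (-0.63 ± 0.034, limma adjusted p = 2.8e-06). Hspb8, the partner of Bag3, went from 12.11, 12.06 and 12.08 to 11.35, 11.23 and 11.28 (-0.80 ± 0.037, limma adjusted p = 1.6e-06), and thus opposite to Bag3. Hspb6 (HSP20) was 2.30-fold lower, from 11.33, 11.33 and 11.39 to 10.13, 10.24 and 10.08 (-1.20 ± 0.046). For each of these genes every pulldown array lay below every input array, and 78.1% of all genes above the median had groups without overlap. Hspb2, a small heat shock protein known from muscle, stood at -0.74 ± 0.047 and Hspb11 at -1.30 ± 0.051.

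The 3 other members of this family had low signals, and Hspb3 and Hspb7 did not exceed the median of all probe sets. Hspb3 was called higher at 0.13 ± 0.038 (limma adjusted p = 0.028), but its values of 5.75 to 5.96 lay below the median of all probe sets, and the call ended after cyclic loess, after centring on bright probe sets, and without input replicate 1 or 2 or pulldown replicate 1 or 3. Hspb9 (0.12 ± 0.053) and Hspb7 (0.01 ± 0.029) did not pass. Hspb9 was called higher only in the fit with the replicate number as a block (limma adjusted p = 0.030).

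Prefoldin mRNAs were lower, with 4 of 5 measured subunits lower and 1 not past the test. Among all genes above the median, 26.8% were lower. Pfdn5 had the largest difference of all 82 members. Its input values were 11.22, 11.14 and 10.94 and its pulldown values 8.97, 8.77 and 9.10, which is 4.45-fold lower (-2.15 ± 0.098, limma adjusted p = 1.4e-06). Pfdn6 went from 10.09, 9.95 and 9.84 to 8.67, 8.71 and 8.93 (-1.19 ± 0.084), Pfdn1 from 9.85, 9.83 and 9.78 to 8.97, 9.05 and 8.92 (-0.84 ± 0.040), and Pfdn4 stood at -0.35 ± 0.051. No array of the pulldown reached the input in these 4 genes, and 78.1% of all genes above the median had groups without overlap. The gene Pfdn5 holds a predicted microRNA gene, Gm51296, and Hspb6 another, Gm38670. Whether these enter the signal of Pfdn5 or Hspb6 was not tested. Pfdn2 was unlike the 4 lower subunits, with input values of 10.67, 10.64 and 10.64 inside the range of its pulldown values of 10.47, 10.60 and 10.77 (-0.03 ± 0.070, 95% confidence interval -0.20 to 0.13, limma adjusted p = 0.71). The remaining subunit of the complex carries the symbol Vbp1, outside the rule, and was lower at -0.34 ± 0.051.

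CCT subunits, which occur once each in a ring, did not move together. Of 7 measured under the rule, 2 were higher, 4 lower and 1 did not pass. All 7 lie above the median of all probe sets, where 45.9% of genes were higher and 26.8% lower. Cct2 went from 12.37, 12.40 and 12.41 to 12.82, 12.80 and 12.84 (0.43 ± 0.028, limma adjusted p = 8.3e-06). Cct4 went from 11.73, 11.56 and 11.81 to 11.07, 11.02 and 11.06 (-0.65 ± 0.062, limma adjusted p = 6.5e-05). The log2 ratio of Cct2 to Cct4 within an array was 0.63, 0.84 and 0.60 in the input and 1.75, 1.78 and 1.78 in the pulldown, given without a test because these subunits were taken as the extremes.

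The other ring subunits lay between. Cct5 (-0.38 ± 0.062), Tcp1 (-0.38 ± 0.029) and Cct7 (-0.19 ± 0.042) were lower. The gene Tcp1 holds the small nucleolar RNA Snora20, and whether this RNA enters the value of Tcp1 was not tested. Cct3 stood at -0.05 ± 0.031 and was called lower after cyclic loess (-0.15, limma adjusted p = 0.0053) and after centring on bright probe sets (-0.09, limma adjusted p = 0.048). Cct8 was higher by 0.20 ± 0.052 (limma adjusted p = 0.016). This call ended after cyclic loess (0.10, adjusted p = 0.16) and without input replicate 3 or pulldown replicate 1 or 3 (adjusted p of 0.061 to 0.064, limma). Cct6a, the last ring subunit and outside the rule, was lower at -0.13 ± 0.032.

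**Figure D2:**
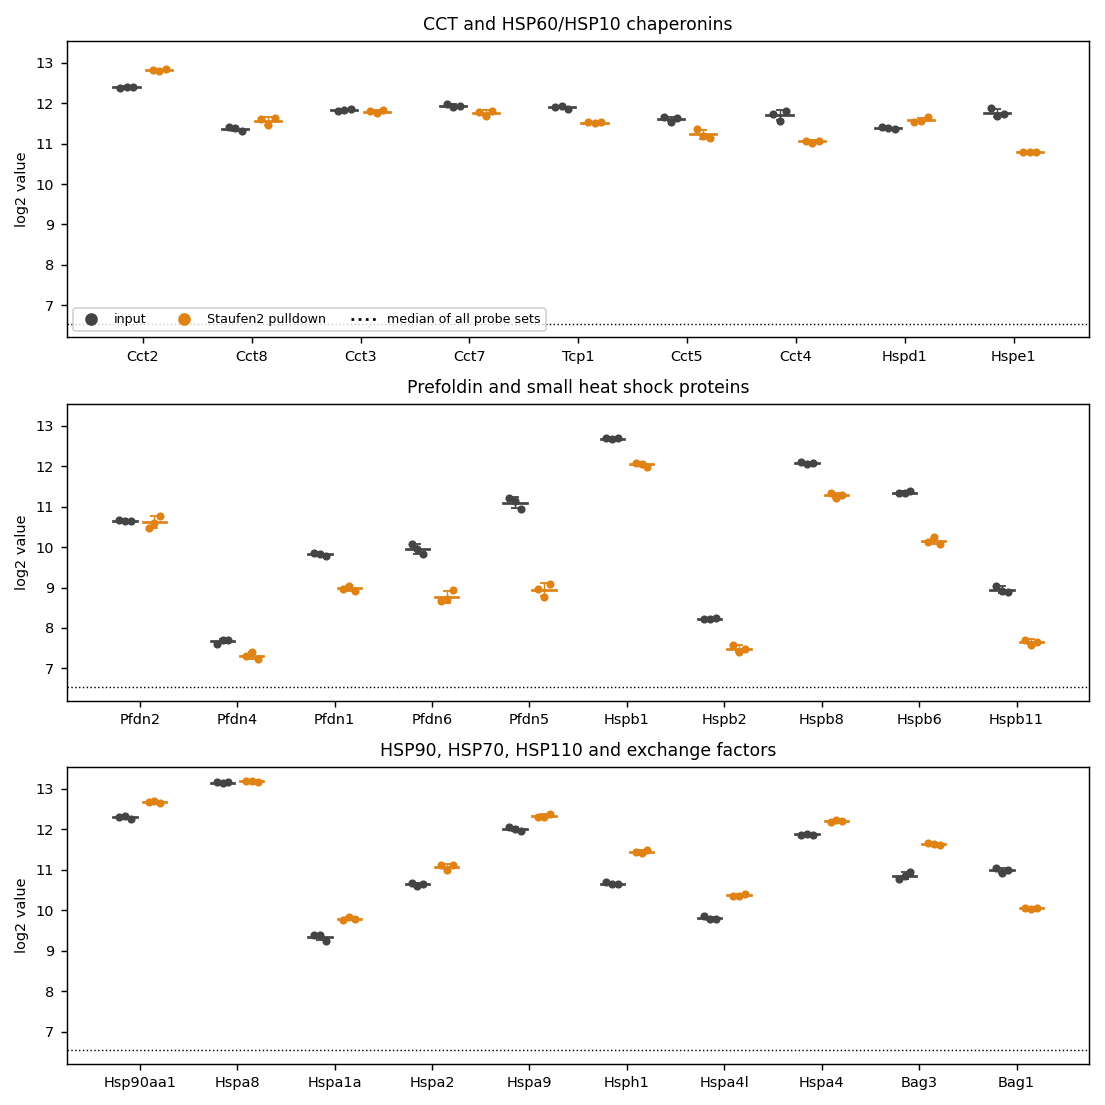
Log2 value on each array (points), mean (bar) and SD of the input and the Staufen2 pulldown, 3 arrays each, for members of 3 sets of chaperones, with the median of all probe sets as a dotted line. Hspd1 and Hspe1 move in opposite directions, Pfdn5 drops furthest, and input and pulldown of Pfdn2 overlap.

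Hspd1 and Hspe1, which share the stretch of sequence printed above, differed in the pulldown. Hspd1 had values of 11.41, 11.39 and 11.35 in the input and 11.54, 11.56 and 11.65 in the pulldown (0.20 ± 0.037, limma adjusted p = 0.0029). Hspe1 had 11.87, 11.69 and 11.72 in the input and 10.79, 10.80 and 10.79 in the pulldown (-0.96 ± 0.048, limma adjusted p = 2.2e-06), or 1.95-fold lower. The log2 ratio of Hspd1 to Hspe1 within an array was -0.46, -0.29 and -0.37 in the input and 0.75, 0.76 and 0.85 in the pulldown, so all 3 pulldown arrays lay above all 3 input arrays. The shift of the ratio was 1.16. It is given without a test, because both genes already lay apart in opposite directions, which fixes the outcome of a test. The call of Hspd1 itself ended after cyclic loess (0.10, limma adjusted p = 0.057), whereas both probe sets of Hspe1 were lower (-0.96 each). On the probe sets among neighbours of chromosome 1, the ratio was -0.66, -0.59 and -0.69 in the input. It was 0.37, 0.53 and 0.53 in the pulldown, a shift of 1.12, likewise without a test.

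Of 8 members assigned to mitochondria, 4 were lower (Dnajc15, Hspe1, Dnajc19 and Dnajc30), 3 higher (Hspa9, Dnaja3 and Hspd1) and Dnajc11 did not pass (-0.02). Of 7 members assigned to the endoplasmic reticulum, 5 were higher (Dnajb12, Dnajb14, Dnajc14, Dnajc10 and Dnajc1), and Hspa13 (0.11) and Dnajc25 (-0.10) missed the threshold. All members assigned to these compartments lie above the median of all probe sets, where 45.9% of genes were higher and 26.8% lower. Dnajc25 was called lower after cyclic loess (-0.19, limma adjusted p = 0.0063) and after centring on bright probe sets (-0.14, limma adjusted p = 0.035), and loess ended the call of Dnajc1 (0.09, limma adjusted p = 0.12). Loess also gave 2 mitochondrial members higher and 5 lower, with Dnajc11 at -0.13 (limma adjusted p = 0.0065). With a required fold change of 1.2 (treat), 0 mitochondrial members were higher and 3 lower, and 3 of the endoplasmic reticulum were higher. Dnajc30 rests on few arrays: its call (-0.33, limma adjusted p = 0.026) ended without input replicate 2 or 3 or pulldown replicate 1 or 3. The compartments were assigned after the values were seen, as were the names of genes given here for their compartment alone, and no test was made of them. Other members may act in these compartments too, so the counts are not those of whole compartments.

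Of the 82 members, 7 had more than 1 probe set. Positions of probe sets were not used here, but 96.8% of 21695 probe sets with 1 symbol and a mapped gene lay on the chromosome that is commonest among their 10 neighbours on each side in the order of probe identifiers. The probe set used for 6 members did not (Hsp90aa1, Hspa8, Hspb1, Hspd1, Hspe1 and Dnaja1), and what these probe sets read was not tested. With the brightest probe set among neighbours of the gene's own chromosome, Hsp90aa1 stood at 0.33, Hspb1 at -0.68, Hspd1 at 0.17 and Hspe1 at -0.96, all still called (limma adjusted p from 9.3e-07 to 0.036). Hspa8 became lower and Dnaja1 lost its call, and the counts over all members stayed at 31 higher and 27 lower. All 15 probe sets of Dnajc13 were higher, from 0.84 to 1.21 with a median of 0.99, so the probe set used for the gene (0.94) lay inside their range. All 3 of Hsp90aa1 (0.33 to 0.38) were higher, and both of Hspb1 (-0.68 and -0.63) were lower. In the fit over all probe sets, Hspa8, Dnaja1 and Hspd1 had probe sets that passed and others that did not (for Hspd1 at 0.17, limma adjusted p = 0.062).

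**Figure D3:**
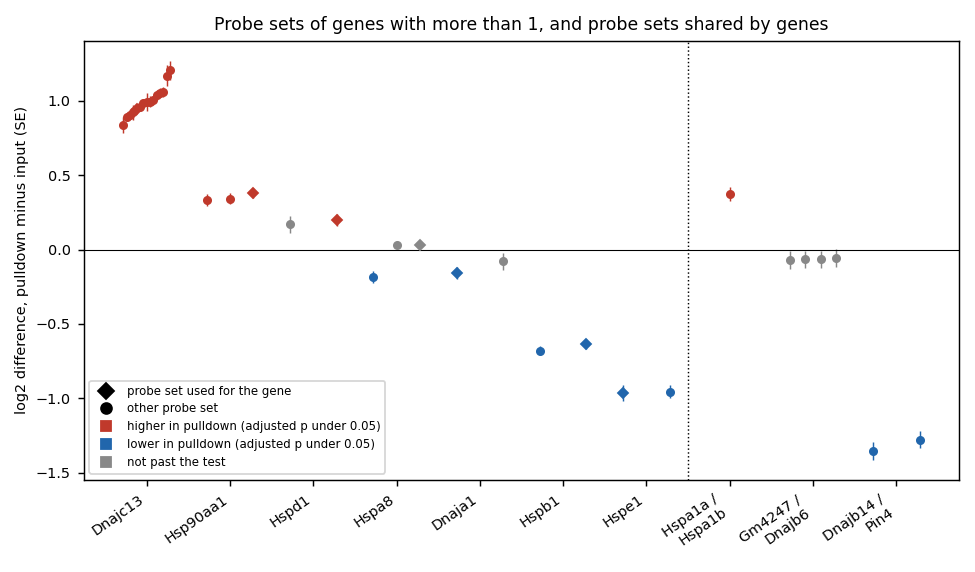
Log2 difference (pulldown minus input, with SE) of each probe set of the 7 members with more than 1 (left of the dotted line) and of probe sets listed for a member and another gene (right), 3 arrays per group. The 15 probe sets of Dnajc13 lie between 0.84 and 1.21, and those shared by Dnajb14 and Pin4 lie at -1.35 and -1.28.

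Genomic span was set against the difference as a description. Span includes introns and is therefore only a rough guide to RNA size, and lengths of transcripts or proteins were not used here. Spearman's rank correlation of the difference with span was 0.19 over the 82 members (0.17 to 0.21 for each pulldown array against the mean input) and 0.24 over the 73 above the median of all probe sets. Over all protein-coding genes it was 0.36 (18556 genes), and 0.48 over the 11770 above the median. All points come from the same 6 arrays, and genes do not replicate each other independently, which is why the coefficients stand without p.

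Members with short genes lay on both sides. Among the 24 members with the shortest genes above the median (0.647 to 11.0 kb), 8 were higher and 11 lower, against 21.1% higher and 45.8% lower of 3207 coding genes of such spans. Hspa1a and Hspa2, with spans of 2.80 and 3.13 kb, were higher, and so was Bag5 at 3.77 kb. Hspb6 (2.91 kb), Hspe1 (3.17 kb) and Dnajc4 (4.68 kb) were lower. Among the 24 with the longest genes (24.6 to 188 kb), 12 were higher and 6 lower, against 3238 and 711 of 5084 coding genes (63.7% of them higher). Dnajc13 (112 kb) and Hspa12a (148 kb) were higher, but Pfdn1 (50.8 kb), Dnajc15 (48.7 kb) and Hspb11 (30.9 kb) were lower.

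**Figure D4:**
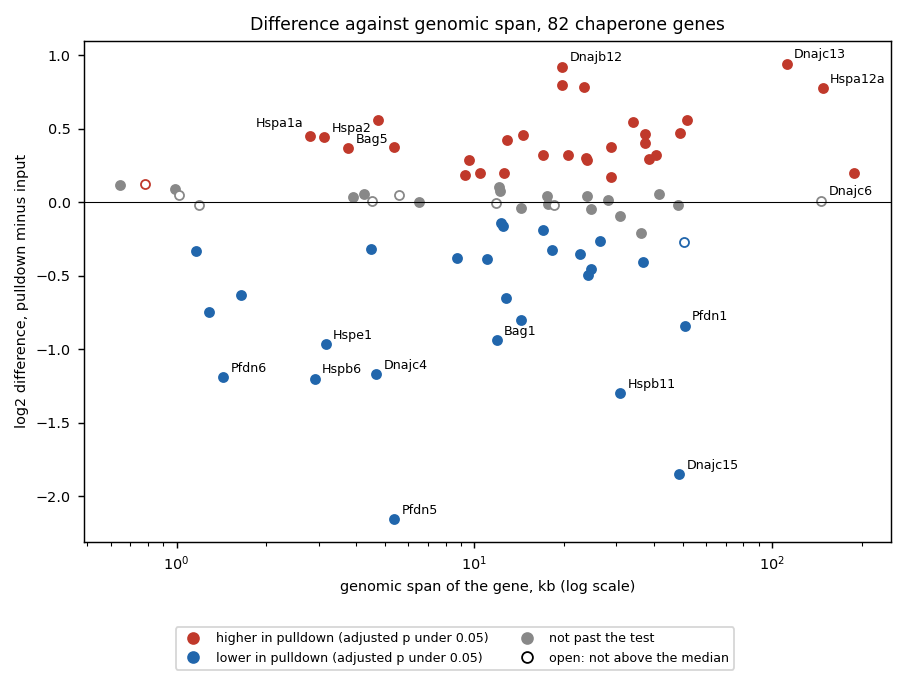
Log2 difference (pulldown minus input, mean of 3 arrays each) of the 82 chaperone genes against the genomic span of the gene in kb on a log axis. Genes lower in the pulldown occur at short spans (Pfdn6, Hspb6) and at long ones (Pfdn1, Dnajc15), and the short genes Hspa1a, Hspa2 and Bag5 lie above 0.

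Partners of these chaperones that the rule leaves out went both ways too. Of 52 listed, 50 were measured, and of these 16 were higher, 21 lower and 13 did not pass, with a median difference of -0.04 (0.04 for all genes). The shares were 32% higher and 42% lower, against 31.3% and 17.3% of all genes and 45.9% and 26.8% of those above the median, where 49 of the 50 lie. Tomm70a, the mitochondrial import receptor that docks HSP70 and HSP90, was higher by 0.59 ± 0.052, the HSP90 cochaperone Fkbp5, an immunophilin, by 0.51 ± 0.066, and Sgtb, a small glutamine-rich cochaperone, by 0.46 ± 0.052. Hikeshi, which carries HSP70 into the nucleus under heat stress, was lower, from 11.12, 11.16 and 11.14 to 10.02, 10.13 and 10.11 (-1.05 ± 0.036). Naca, a subunit of the nascent chain-binding complex at the ribosome, stood at -0.74 ± 0.033, and Cryab (alpha B-crystallin), a small heat shock protein without an Hspb symbol, at -0.68 ± 0.040. Adjusted p-values from limma for these 6 partners lay between 4.8e-07 and 0.00035. The lower small heat shock proteins other than Hspb11 ran from -1.20 to -0.63.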

How the data were processed

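Log2 values for each probe set on every array were deposited by the authors. Per the submitters' processing notes they used RMA and limma, and versions and genome build are not given in the sources used here. This method gives arrays like distributions, so differences are relative to other RNAs; array medians were 6.53 to 6.54. Of 35556 probe sets, 21789 had 1 gene symbol in the platform's annotation, 1621 several and 12146 none. For each symbol the probe set with the highest mean over 6 arrays was used (19938 genes). All genes were fitted with limma 3.58.1 in R 4.3.3 (2-sided, no covariates, Benjamini-Hochberg over all genes, threshold 0.05); probe sets were fitted likewise over all 35556. The number of arrays limits the precision, with a median SE of 0.039. All 82 members matched RefSeq by Entrez identifier. Promoter windows run from 250 bases before to 50 after a start.

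The members, lists and named genes were chosen with earlier results of these data known. Groups of up to 8 measured members are named in full; of larger groups the 4 largest differences in each direction past the test and above the median, and of partners 3. Hspa8, Hspa1a, Hspa9, Dnajb1 and Stau2 are named in any case, and Hsf1, fixed with them, had no probe set of its own. A planned correlation with protein length was left out because no table used here holds such lengths. On simulated data with 200 of 19938 genes moved, 86.6% were recovered at a log2 difference of 0.25 and 100% at 0.5 and 1, with 8 false calls among 199. The simulated noise was independent and normal, and few genes were moved, whereas 48.7% were called in the data. These figures are therefore not error rates of the calls given here. Figures used matplotlib 3.10.9.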

Additional observations from a re-analysis of the deposited data

Results flagged for a closer look

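A probe set listed for both Hspa1a and Hspa1b lay outside the genes tested because it has 2 symbols, and its signal was higher after the pulldown. The mean was 10.29 in the input and 10.67 in the pulldown, a difference of 0.37 (limma adjusted p = 0.00096 over all probe sets).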

How the results depend on the processing

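Of the 58 called members, 32 were called the same way under all 15 alternatives that tested them, 51 after cyclic loess and 58 with the replicate block, and none of the 58 was called the opposite way. A required fold change of 1.2 (treat) left 16 members higher and 16 lower, of all genes 3034 and 1822, and of partners 4 and 10. It left 0 DNAJA genes in either direction, 2 DNAJB higher and 0 lower, 6 DNAJC and 3, 1 exchange factor higher, 0 small heat shock proteins higher, 1 CCT higher and 2 lower, and 0 mitochondrial chaperonin genes higher. Cyclic loess gave 10 partners higher, 2 DNAJA and 11 DNAJC genes lower, 1 CCT, 0 small heat shock proteins and 0 mitochondrial chaperonin genes higher. Taking probe sets on the gene's own chromosome first gave 1 HSP70 gene lower (Hspa8, at -0.18) and 0 DNAJA genes lower. Centring on bright probe sets gave 0 small heat shock proteins higher. The filter on dim genes gave 1 DNAJB gene lower, 0 small heat shock proteins higher and a correlation with span of 0.24, with fewer genes tested. Leaving out 1 array gave 29 to 33 members higher and 24 to 26 lower, 1 to 2 DNAJA higher, 1 to 2 DNAJB lower, 0 to 1 small heat shock proteins higher and 1 to 2 CCT higher. The cause of the other shifts was not tested. The fit was unpaired because the labels do not say that replicate numbers pair samples. Same-numbered samples also did not deviate together (correlations of 0.024, 0.11 and -0.060). With the replicate number as a block 32 members were higher and 27 lower, and 2 small heat shock proteins were higher in place of 1. Signal over background is not given by these values, and 9 members did not exceed the median of all probe sets, so little can be read from small differences in them. The own-chromosome probe sets, the counts by compartment and the probe sets taken singly were added after seeing the data.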

Other observations

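Probe sets listed for Hspa8 together with Snord14c and Snord14d, small nucleolar RNAs from its introns, stood at -1.28 (both probe sets, limma adjusted p of 0.00069 and 0.00070), with pulldown values of 5.17 and 5.19 below the median of all probe sets. The probe set shared by Dnaja1 and the microRNA gene Mir207 stood at 0.02 (limma adjusted p = 0.69).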
